A study of Mus musculus with 21 samples.

Results

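PC308-1 is a mouse glioma stem-like cell line with the genotype IDH1 WT, and it was compared here with PC134-0 and PC326-1, the other two IDH1 WT lines of a set of 7 lines. The comparison took 3 PC308-1 libraries against 3 of PC134-0 and 3 of PC326-1, which is 9 of the 21 mRNA libraries of the series. All the lines were established from brain tumours of genetically engineered mice, and all were grown without treatment and without attachment, in stem cell medium with EGF (20 ng/mL) and bFGF (20 ng/mL), at 5% oxygen and 5% CO2. The engineered alleles, the age of the mice and the number of mice behind a line are not given in the labels used here. Of the 4 remaining lines, PIC144-1, PIC144-3, PIC496-3 and PIC496-4, which the labels give as IDH1 mutant, only levels are given, to show where else a level like that of PC308-1 was found.

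Of 54532 genes in the file, 50225 were autosomal, and 13706 of these had a mean of at least 0.5 FPKM (fragments per kilobase of gene, scaled to the size of the library) in at least 1 of the 3 lines and were tested. They comprised 12570 genes outside chromosomes 12 and 13, 523 on chromosome 12 and 613 on chromosome 13, and the last pair of groups is described apart. A gene was called where PC308-1 differed from each of the other lines in the same direction by at least 1 on the log2(FPKM + 0.5) scale, with a limma adjusted p under 0.05 in both comparisons. Both comparisons use the same PC308-1 libraries, so they are not independent of each other. A p-value here measures the spread between libraries of a line, which the labels call biological replicates but which may be technical, and a difference is one between these 3 lines. In bulk cultures, fewer cells of a type and less RNA per cell cannot be told apart.

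Glioma stem-like cells keep features of neural stem cells and of glial progenitors. Oligodendrocyte progenitors carry the receptor PDGFRA on their surface and proliferate in response to PDGF, and a PDGFRA-rich progenitor state is 1 of the states in which glioma cells are commonly found. Cultured tumour cells also often differ in the copy number of whole chromosomes, and RNA levels of the genes on such a chromosome tend to shift together. DNA was not measured here.

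PC308-1 stood well apart from the other lines. The 9 libraries held 15011668 to 18433597 fragments each, and the median standard deviation between libraries of a line was 0.124 in PC308-1, 0.105 in PC134-0 and 0.107 in PC326-1 on the log2 scale. PC308-1 differed by the fold and p thresholds from PC134-0 in 1435 genes (10.5% of those tested), of which 856 were higher (6.25%) and 579 lower (4.22%), and from PC326-1 in 1467 genes (10.7%), of which 942 were higher (6.87%) and 525 lower (3.83%). PC134-0 differed from PC326-1 in 269 genes (1.96%), with 161 higher (1.17%) and 108 lower (0.788%). All 9 libraries had the RNA of the labelled cell type: Sox2, a neural stem cell factor, stood at 216 FPKM against 227 and 228 in PC308-1, PC134-0 and PC326-1, Olig2, a factor of the oligodendrocyte lineage, at 298 FPKM against 239 and 303, and Nes, an intermediate filament of neural stem cells, at 52.7 FPKM against 46.9 and 50.4. None of these 3 genes was called. Ptprc, the pan-leukocyte marker, was at 0 FPKM in PC308-1 and Pecam1, an endothelial marker, at 0.0209 FPKM.

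Outside chromosomes 12 and 13, 458 genes were higher in PC308-1 than in each of the other lines (3.64% of 12570) and 256 were lower (2.04%). The median log2 difference of the higher genes was 1.46 against PC134-0 and 1.56 against PC326-1, and that of the lower genes was -1.5 and -1.48. Another 354 genes passed only against PC134-0 and 408 only against PC326-1, and no gene passed against both in opposite directions. The balance of the directions depends on the settings: 2364 were higher and 2278 lower without the fold threshold, 671 and 549 in limma voom on recovered fragments, and 623 and 487 at a pseudocount of 0.1. The difference was at least 2 on the log2 scale against each line for 101 of the higher and 43 of the lower genes, and at least 3 for 31 and 10. In 451 of the 458 and 254 of the 256, the 3 PC308-1 libraries did not overlap the other 6 (over all tested genes, 23% lay wholly above and 21.8% wholly below).

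The 4 IDH1 mutant lines divide the calls in different ways for the 2 directions. Among the 458 higher genes, PC308-1 had the highest mean of all 7 lines in 312 (68.1%, against 16.5% of all tested genes), and PC134-0 and PC326-1 both lay below the remaining 5 lines in 151 (33.0%, against 12.7%). Among the 256 lower genes, PC308-1 was the lowest line in 92 (35.9%, against 14.6%), and PC134-0 and PC326-1 both lay above the remaining 5 lines in 154 (60.2%, against 13.4%). The 2 descriptions can both hold for a gene. They rest on the calls that chose the genes, so they carry no test.

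**Figure D1:**
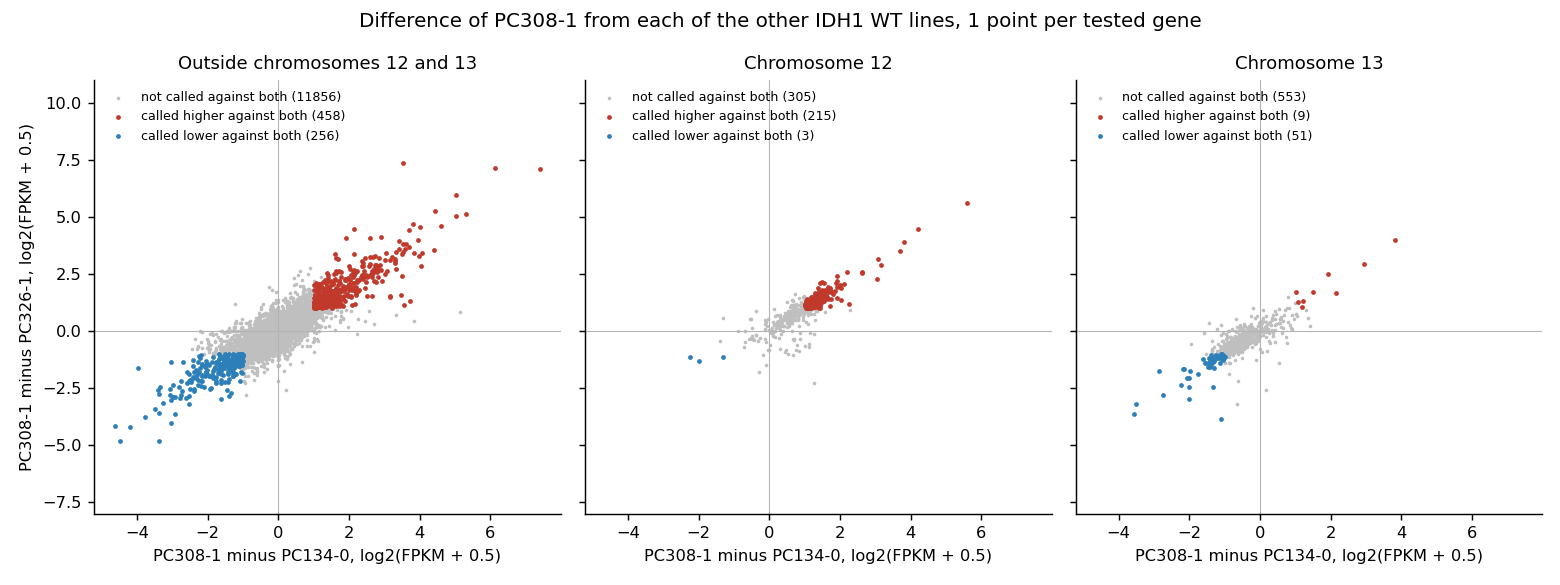
Each point is a tested gene, placed by the log2(FPKM + 0.5) difference of PC308-1 from PC134-0 (horizontal axis) and from PC326-1 (vertical axis), in panels for genes outside chromosomes 12 and 13, on chromosome 12 and on chromosome 13. Coloured points are called against both lines: 458 higher and 256 lower outside, 215 higher and 3 lower on chromosome 12, 9 higher and 51 lower on chromosome 13. The axes share the PC308-1 libraries, so their likeness is partly built in.

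The leading gene was Col2a1 (chr15:97975602-98004695, minus strand, GRCm38), the main fibrillar collagen of cartilage. It was measured at 254, 207 and 228 FPKM in the PC308-1 libraries, 3.698, 2.38 and 2.46 in PC134-0 and 1.36, 1.12 and 0.9605 in PC326-1. The PC308-1 libraries lay far above the other 6 and above the means of the IDH1 mutant lines, which ran from 0.698 to 10.1 FPKM. The log2 difference was 6.12 against PC134-0 and 7.13 against PC326-1 (SE 0.15; limma adjusted p = 5.79e-09 and 2.41e-09). Vit, which encodes the matrix protein vitrin, was measured at 26.7, 25.4 and 24.7 FPKM in the PC308-1 libraries, 0.2199, 0.0391 and 0.218 in PC134-0 and 0.301, 0.183 and 0.238 in PC326-1. Again no other library came near those of PC308-1, and the IDH1 mutant means were 0.0379 to 3.54 FPKM.

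Other genes that led the list encode surface proteins. Gpr37l1, a receptor found on glial cells, was measured at 22.7, 18.7 and 20.8 FPKM in the PC308-1 libraries, 0.9902, 0.946 and 1.15 in PC134-0 and 0.588, 0.208 and 0.197 in PC326-1, with log2 differences of 3.80 and 4.70. The groups did not overlap. Opn5, which encodes neuropsin, an opsin, stood at 6.22 FPKM against 0.0514 and 0.0418. H2-Ab1, the beta chain of a class II antigen-presenting molecule, stood at 12.8 FPKM against 0.541 and 0.127, while its partner chain H2-Aa stood at 0.0197 FPKM in PC308-1, the class II invariant chain Cd74 at 0.121 FPKM and the class II transactivator Ciita at 0.03399 FPKM. H2-Ab1 rose by 3.69 and 4.42 on the log2 scale, while H2-Aa, Cd74 and Ciita were too low to be tested.

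For some of the leading genes it was the other IDH1 WT lines that lacked the RNA. Ndn, an imprinted gene expressed from the paternal copy, was measured at 13.4, 10.4 and 11.5 FPKM in PC308-1 and at 0 in all 6 other IDH1 WT libraries, at least 227-fold higher when 3 fragments per library are taken as the floor. The IDH1 mutant lines held 4.71 to 18.9 FPKM, a range that includes PC308-1. Its neighbours in the same imprinted region were not called: Peg12 stood at 22.3 FPKM against 22.6 and 20.01 and Snrpn at 17.1 FPKM against 15.95 and 10.9. For Mkrn3 the PC308-1 libraries lay above the other 6 but under the fold threshold, at 3.72 FPKM against 2.03 and 2.304 (log2 differences 0.74 and 0.59). Dgkz, which encodes a diacylglycerol kinase, was measured at 15.2, 15.6 and 16.7 FPKM in PC308-1, and a single fragment was found in the 3 PC134-0 libraries and none in the 3 of PC326-1. Ambra1, a regulator of autophagy on one side of Dgkz, was called too, at 7.52 FPKM against 1.09 and 1.07 (log2 differences 2.34 and 2.35), while Creb3l1, on the other side, was not called, at 2.08 FPKM against 2.63 and 2.57. In the IDH1 mutant lines Dgkz ran from 13.5 to 28.6 FPKM and Ambra1 from 6.04 to 8.62 FPKM.

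Rpl34 and Gt(ROSA)26Sor are uncertain as gene calls. Rpl34, a ribosomal protein gene with near-identical copies in the genome, was measured at 51.4, 47.6 and 53.1 FPKM in the PC308-1 libraries, 2.304, 2.53 and 3.34 in PC134-0 and 1.399, 1.36 and 2.51 in PC326-1, while the copy Rpl34-ps1 ran the other way at 575 FPKM against 828 and 1153, and these loci may share reads. The IDH1 mutant means of Rpl34 were 57.9 to 85.5 FPKM, so PC134-0 and PC326-1 were the low lines. Gt(ROSA)26Sor is a noncoding transcript at the Rosa26 locus, a site widely used to place transgenes in mice. It was measured at 114, 63.5 and 114 FPKM in the PC308-1 libraries, 2.895, 5.102 and 3.996 in PC134-0 and 1.43, 2.68 and 1.92 in PC326-1, with IDH1 mutant means of 0.604 to 2.01 FPKM. Replicate 2 of PC308-1 was lower than the other 2, and all 3 lay above the other 6. Thumpd3, which overlaps it on the opposite strand, stood at 3.78 FPKM against 6.41 and 5.46, and the use of strand in counting is not given in the sources used here. Neither gene's origin was tested.

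On the lower side, 12 genes led by the same rule, and most were nearly silent in PC308-1. Ly6e, a small membrane protein induced by interferon, was measured at 0.132, 0.0781 and 0.1199 FPKM in the PC308-1 libraries, 13.2, 13.7 and 12.4 in PC134-0 and 17.1, 17.3 and 15.3 in PC326-1. The PC308-1 libraries lay below all of the other 6. The log2 difference was -4.48 against PC134-0 and -4.80 against PC326-1 (SE 0.08; limma adjusted p = 1.54e-09 and 4.94e-10). Galnt17, a glycosyltransferase gene, stood at 0.0562 FPKM against 13.2 and 9.48, Kcne4, a potassium channel subunit, at 0.0739 FPKM against 10.01 and 10.1, and Prr15, a gene for a proline-rich protein, at 0.337 FPKM against 10.99 and 10.98. Kcne4 and Prr15 were also low in the IDH1 mutant lines (0.0454 to 0.101 FPKM and 0.0559 to 0.242 FPKM), whereas Galnt17 spanned 0.0115 to 21.02 FPKM there.

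Synaptic and secreted proteins were among the lower genes. Nptx2, a secreted protein that clusters glutamate receptors, was measured at 0, 0.0932 and 0.134 FPKM in the PC308-1 libraries, 5.92, 4.903 and 5.49 in PC134-0 and 16.9, 15.3 and 14.1 in PC326-1, so the 3 lines formed 3 separate levels with PC308-1 at the bottom. Syt9, a synaptotagmin of vesicle release, stood at 0.102 FPKM against 6.23 and 5.97 and Tenm3, a teneurin of synaptic adhesion, at 0.598 FPKM against 7.81 and 13.3. Sfrp1, a secreted inhibitor of Wnt signalling, was measured at 0, 0.0406 and 0 FPKM in the PC308-1 libraries, 3.8003, 3.36 and 3.05 in PC134-0 and 3.05, 3.09 and 3.77 in PC326-1, and its log2 differences were -2.92 and -2.88. Ccdc80 and Adamtsl3, both matrix proteins, were lower too, with log2 differences of -3.04 and -3.02 for Ccdc80 and -2.97 and -2.91 for Adamtsl3. Gstt1, a glutathione transferase, stood at 3.34 FPKM against 35.8 and 33.5, and the IDH1 mutant lines were as low as PC308-1 (0.965 to 3.42 FPKM).

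Gapdh, the glycolytic enzyme, was the least certain of the lower genes. It was listed at 3.33, 3.45 and 5.102 FPKM in the PC308-1 libraries, 86.5, 7.74 and 63.8 in PC134-0 and 23.9, 135 and 114 in PC326-1. The other 6 libraries spread widely, from 7.74 to 135 FPKM, and the genome holds many near-identical copies of this gene between which reads can be split. The log2 differences were -3.03 and -4.04 with an SE of 0.89 (limma adjusted p = 0.019 and 0.00465), and the call was lost without replicate 1 or replicate 3 of PC134-0 (adjusted p = 0.0712 and 0.0699), without replicate 2 of PC308-1 (adjusted p = 0.0553) and in limma voom on recovered fragments (adjusted p = 0.137).

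**Figure D2:**
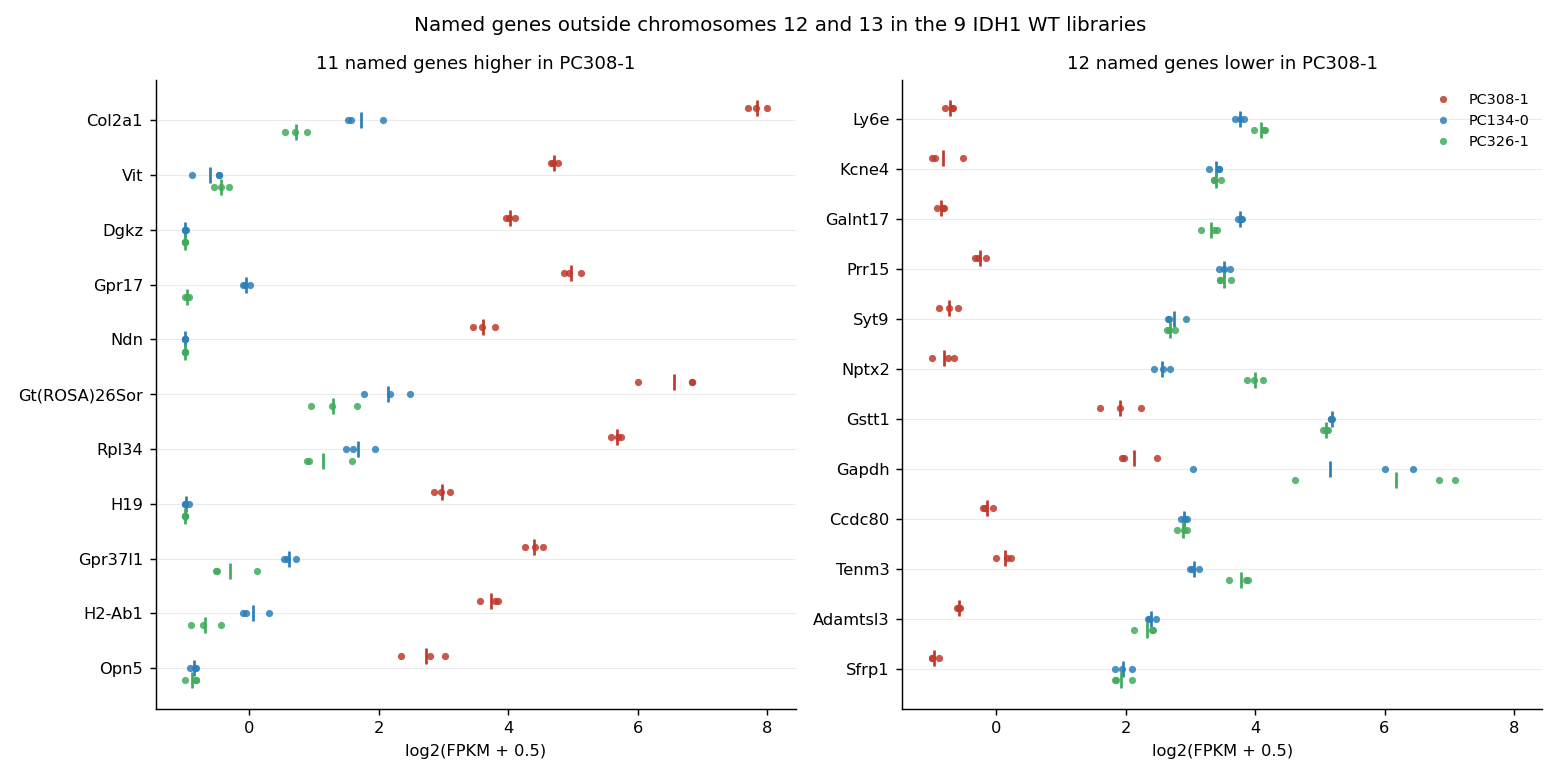
Levels of 11 higher and 12 lower genes among those with the largest differences outside chromosomes 12 and 13, on the log2(FPKM + 0.5) scale. Each dot is a library (3 per line) and each tick the mean of a line. The PC308-1 dots do not overlap those of the other lines in any row, which was part of the rule that chose the genes, and Gapdh has the widest spread among the other 6 libraries.

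Genes of oligodendrocyte progenitors were the cell type list with the most called members. Of 17 markers, all 17 tested, 5 were higher in PC308-1 and none was lower (over all tested autosomal genes 4.98% were higher and 2.26% lower), and the list's median log2 difference was 0.59 against PC134-0 and 1.08 against PC326-1, where all tested genes had medians of -0.00 and -0.01. Pdgfra (chr5:75152292-75198215, plus strand), the receptor that defines these progenitors, was measured at 106, 109 and 97.5 FPKM in the PC308-1 libraries, 12.6, 12.5 and 11.95 in PC134-0 and 11.9, 11.04 and 12.2 in PC326-1. The other lines were alike and the PC308-1 libraries were close to each other. The log2 difference was 3.02 against PC134-0 and 3.10 against PC326-1 (SE 0.06; limma adjusted p = 2.82e-09 and 1.85e-09). Every IDH1 mutant line was below the other IDH1 WT lines as well (0.436 to 9.79 FPKM).

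Gpr17, a receptor of progenitors that are about to differentiate, was measured at 34.3, 28.5 and 30.01 FPKM in the PC308-1 libraries, 0.455, 0.437 and 0.511 in PC134-0 and 0.0233, 0.0114 and 0 in PC326-1, with log2 differences of 5.02 and 5.94. Its level in the IDH1 mutant lines was 0.0245 to 0.782 FPKM, all below PC308-1. C1ql1, a secreted complement-like protein of these progenitors, was measured at 38.7, 32.5 and 46.1 FPKM in the PC308-1 libraries, 2.97, 1.37 and 1.62 in PC134-0 and 4.57, 5.09 and 5.33 in PC326-1. PIC144-1 had a like level of C1ql1, 37.4 FPKM. Lhfpl3, a membrane protein gene of the same cells, stood at 45.5 FPKM against 11.7 and 2.25, and here PC134-0 was also above PC326-1. Tnr, a matrix protein of oligodendrocyte lineage cells, stood at 3.94 FPKM against 0.982 and 0.2802 (log2 differences 1.58 and 2.51).

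Other markers of the list differed less. Cspg4, the NG2 proteoglycan, stood at 48.9 FPKM against 33.3 and 25.3, Sox6, a factor of the progenitor stage, at 24.1 FPKM against 15.8 and 14.5, and Olig1 at 620.1 FPKM against 412 and 417. In each the 3 PC308-1 libraries lay above the other 6 (as in 23% of all tested genes), at log2 differences of 0.55 and 0.94, 0.59 and 0.70 and 0.59 and 0.57, under the fold threshold against at least 1 line. Of the 17 markers, 14 had a positive difference against both lines and 2 a negative one. Over all tested genes, 5615 of 13706 were positive against both and 5803 negative. Sox10, a factor of the whole oligodendrocyte lineage, was near the filter, at 0.528 FPKM against 0.0894 and 0.0136. The summed FPKM of the 17 markers was 1307 to 1540 in the PC308-1 libraries, 868.7 to 1096 in PC134-0 and 883 to 1001 in PC326-1. Of 15 genes of myelinating oligodendrocytes, 7 were tested and none was called in either direction. Mbp, a myelin protein, stood at 0.522 FPKM against 0.206 and 0.0503 and Cnp, an early myelin enzyme, at 27.3 FPKM against 30.5 and 16.998.

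Promoter sequence was at hand for 3 of the 5 called progenitor genes, Pdgfra, Lhfpl3 and Tnr, from RefSeq (GRCm38.p6). They are printed because these genes were higher together, as the 250 bases before the annotated start, at chr5:75152001-75152250 on the plus strand for Pdgfra, chr5:22745804-22746053 on the plus strand for Lhfpl3 and chr1:159523519-159523768 on the plus strand for Tnr. Capitals mark 2 motifs searched on both strands: CAGCTG, an E-box of the kind bound by basic helix-loop-helix factors such as OLIG2, which reads the same on both strands, and ACAAAG, a motif of SOX factors, which reads CTTTGT on the opposite strand.
Pdgfra: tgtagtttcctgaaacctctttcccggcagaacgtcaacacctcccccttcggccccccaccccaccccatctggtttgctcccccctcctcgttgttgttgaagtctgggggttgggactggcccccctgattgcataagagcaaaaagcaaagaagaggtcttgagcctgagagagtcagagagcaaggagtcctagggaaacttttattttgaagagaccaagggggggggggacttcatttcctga
Lhfpl3: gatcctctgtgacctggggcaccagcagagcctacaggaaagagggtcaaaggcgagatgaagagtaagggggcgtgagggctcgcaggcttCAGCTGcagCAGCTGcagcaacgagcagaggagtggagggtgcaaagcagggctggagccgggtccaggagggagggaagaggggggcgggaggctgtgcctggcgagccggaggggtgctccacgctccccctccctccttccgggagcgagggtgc
Tnr: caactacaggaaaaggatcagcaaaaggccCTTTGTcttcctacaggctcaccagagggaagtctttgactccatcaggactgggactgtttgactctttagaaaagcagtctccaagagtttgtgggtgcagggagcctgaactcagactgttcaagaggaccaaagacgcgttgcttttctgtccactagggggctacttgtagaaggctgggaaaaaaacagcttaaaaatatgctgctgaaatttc
The Pdgfra window held neither motif, that of Lhfpl3 held CAGCTG at 2 places, and that of Tnr held ACAAAG at 1 place, on the opposite strand. Of 32851 promoter windows of this length, 13% held CAGCTG and 16.5% held ACAAAG. These matches describe the letters only. Gpr17 and C1ql1 are named only.

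Astrocyte markers moved in both directions. Of 14 tested, 2 were higher and 2 were lower (over all tested genes 4.98% and 2.26%), with median log2 differences of -0.09 and 0.30. Aldh1l1, a folate enzyme and astrocyte marker, was measured at 8.17, 6.58 and 7.72 FPKM in the PC308-1 libraries, 0.301, 0.126 and 0.156 in PC134-0 and 0.0671, 0.0784 and 0.0566 in PC326-1. The other libraries were near 0, and among the IDH1 mutant lines PIC496-3 had a like level, 6.61 FPKM. S100b, a calcium-binding protein of astrocytes and of oligodendrocyte lineage cells, stood at 23.1 FPKM against 3.37 and 0.961. On the lower side, Slc1a2, the main glutamate transporter, stood at 2.01 FPKM against 13.8 and 8.71, and Glul, glutamine synthetase, at 29.7 FPKM against 83.9 and 62.5 (log2 differences -1.48 and -1.06). Slc1a2 lies on chromosome 2 beyond 90 Mb, where the tested genes had medians of -0.36 and -0.36. Kcnj10, an inwardly rectifying potassium channel of glia from the list of potassium channels, was also higher at 32.2 FPKM against 6.78 and 9.43.

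Among the other cell type lists few genes were called (over all tested genes 4.98% were higher and 2.26% lower). None of 17 neural stem cell genes was called. Tubb3, a neuronal tubulin, was the only 1 of 9 tested neuronal genes that passed, at 10.5 FPKM against 26.997 and 28.1. Thy1, a surface protein of neurons and fibroblasts, was the only 1 of 6 tested pericyte and fibroblast genes, at 0.297 FPKM against 3.74 and 2.26. Of 16 microglia and macrophage markers 2 passed the filter and none was called, and of 12 endothelial markers 3 passed and none was called. Cd68, a lysosomal protein of macrophages, was lower in PC308-1 than in PC134-0 but not called against PC326-1, at 0.587 FPKM against 5.05 and 0.8797. Summed over the list, microglia and macrophage markers were at 1.1 to 1.4 FPKM in PC308-1, 5.8 to 7.1 in PC134-0 and 0.9 to 1.5 in PC326-1, and Tyrobp, a defining marker, was at 0 in all 9 libraries.

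Of 10 tested mesenchymal glioma markers, Spp1, the secreted protein osteopontin, was higher at 65.5 FPKM against 11.6 and 6.66, and Cd44, the hyaluronan receptor, and Anxa1, an annexin, were lower. Spp1 reached 465 FPKM in PIC144-1. The shares called over all tested genes were 4.98% higher and 2.26% lower. Cd44 lies on chromosome 2 beyond 90 Mb, where the tested genes had medians of -0.36 and -0.36. Cd44 was measured at 5.58, 6.595 and 5.34 FPKM in the PC308-1 libraries, 27.5, 31.5 and 26.8 in PC134-0 and 33.1, 33.1 and 31.5 in PC326-1. All PC308-1 libraries lay below the other 6. The log2 difference was -2.20 against PC134-0 and -2.39 against PC326-1 (SE 0.09; limma adjusted p = 7.92e-08 and 4.16e-08). The list's median differences were -0.75 and -0.62.

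In the lists of growth factor signalling, Pdgfra and Ephb2 were the only genes called. Of 5 tested PDGF ligands and receptors only Pdgfra was called (over all tested genes 4.98% were higher and 2.26% lower). Of 21 other receptor kinases only Ephb2, an ephrin receptor, was called, at 1.61 FPKM against 0.549 and 0.268, and the call was lost at a pseudocount of 1 and when rescaled to TPM. None of 18 ERK targets and feedback genes was called in either direction. Etv5, the most abundant of these, stood at 238 FPKM against 219 and 235.

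Of 23 tested glioma driver genes, Pdgfra was higher and Cdkn2a was lower (over all tested genes 4.98% were higher and 2.26% lower). Cdkn2a, which encodes the cell cycle inhibitors p16INK4a and p19ARF, was measured at 137, 125 and 159 FPKM in the PC308-1 libraries, 290.1, 268 and 302 in PC134-0 and 321, 349 and 299 in PC326-1. The PC308-1 libraries lay below the other 6 at log2 differences of -1.03 and -1.20, close to the fold threshold, and the call was lost without replicate 3 of PC134-0 or replicate 2 of PC308-1 (log2 -0.99 and -0.95). Genes of the study's question and of glioma models did not pass: Idh1 stood at 90.5 FPKM against 79.8 and 82.98, the DNA sensor Cgas (listed as Mb21d1) at 3.06 FPKM against 3.91 and 3.24, the tumour suppressor Trp53 at 1.69 FPKM against 1.52 and 1.401, and Pik3ca, a PI3-kinase subunit, at 21.96 FPKM against 19.6 and 19.3. Atrx, on the X chromosome and so not tested, stood at 3.11 FPKM against 2.503 and 2.78.

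None of 30 proliferation genes was called. Of these, 25 had a negative difference against both lines and 4 a positive one, and the median log2 difference was -0.33 against each line (over all tested genes, 5803 of 13706 were negative against both and 5615 positive). Pcna, the sliding clamp of DNA replication, was measured at 65.3, 57.4 and 65.3 FPKM in the PC308-1 libraries, 113, 104 and 110.2 in PC134-0 and 122, 102 and 123 in PC326-1, with log2 differences of -0.80 and -0.88 and no overlap. In the RB pathway, E2f1, a factor of S phase entry, was lower at 8.46 FPKM against 18.5 and 17.6, close to the fold threshold, and Cdkn1c, the imprinted cell cycle inhibitor p57, was higher at 5.38 FPKM against 0.00886 and 0.0603. PIC496-4 was above PC308-1 in Cdkn1c, at 29.3 FPKM. Pcna and E2f1 lie on chromosome 2 beyond 90 Mb, where the tested genes had medians of -0.36 and -0.36. Of 18 tested p53 targets, Btg2, an antiproliferative gene, and Tnfrsf10b, a death receptor, were higher, at 17.9 FPKM against 8.16 and 8.36 and 0.809 FPKM against 0.0503 and 0.0448. The IDH1 mutant lines held 10.6 to 50.5 FPKM of Btg2 and 0.616 to 1.05 FPKM of Tnfrsf10b. The shares called over all tested genes were 4.98% higher and 2.26% lower.

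Of 24 tested interferon-stimulated genes, 3 were called lower and none higher, and 21 had a negative difference against both lines (over all tested genes, 2.26% were lower, 4.98% higher and 5803 of 13706 negative against both). The median log2 difference was -1.40 against PC134-0 and -0.28 against PC326-1. Bst2, the antiviral protein tetherin, was measured at 13.4, 8.71 and 17.5 FPKM in the PC308-1 libraries, 74.8, 67.2 and 82.6 in PC134-0 and 77.8, 84.5 and 70.4 in PC326-1. PC308-1 lay below the other 6 libraries, which were alike in the 2 lines. The IDH1 mutant means of Bst2 were 8.33 to 26.2 FPKM, a range that includes PC308-1. Gbp2 and Gbp3, interferon-induced GTPases, formed 3 levels: Gbp2 stood at 0.132 FPKM against 2.54 and 1.07 and Gbp3 at 0.377 FPKM against 3.45 and 1.29. Gbp2 and Gbp3 lost the call at a pseudocount of 1, and Gbp3 also without replicate 1 or 3 of PC308-1 or replicate 3 of PC326-1. None of 16 tested genes of cytosolic DNA and RNA sensing was called, and Tmem173, which encodes STING, stood at 58.6 FPKM against 55.5 and 60.4. Of 19 genes of class I antigen presentation, Erap1, a peptide-trimming enzyme encoded on chromosome 13, and Pdia3, a chaperone of the peptide-loading complex encoded on chromosome 2, were lower, at 2.07 FPKM against 6.33 and 5.89 and 132 FPKM against 266 and 272. Pdia3 lies on chromosome 2 beyond 90 Mb, where the tested genes had medians of -0.36 and -0.36. The IDH1 mutant lines held 1.34 to 4.42 FPKM of Erap1 and 127 to 176 FPKM of Pdia3.

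Patterning genes differed in many members. Of 28 tested patterning genes, a list of homeobox, forkhead and Zic zinc finger factors, 7 were higher and 2 lower (over all tested genes 4.98% and 2.26%), and 3 of the 28 lie on chromosomes 12 and 13. Six3, a factor of the anterior forebrain and eye, was measured at 6.08, 5.004 and 6.89 FPKM in the PC308-1 libraries, 0.0217, 0.0811 and 0.0796 in PC134-0 and 0.1002, 0.0758 and 0.0704 in PC326-1. PIC496-3 had more Six3 than PC308-1, 10.9 FPKM. En2, a midbrain and hindbrain factor, stood at 13.9 FPKM against 0.761 and 2.12, Zic1, a zinc finger factor of the dorsal neural tube, at 12.4 FPKM against 0.482 and 4.72, Msx1, a factor of the dorsal midline, at 5.25 FPKM against 0.727 and 0.793, and Otx2, a forebrain and midbrain factor, at 1.402 FPKM against 0.00934 and 0. Irx1, on chromosome 13, was higher too. Hoxa2, a hindbrain factor, and Emx2, a cortical factor, were lower at 5.93 FPKM against 14.3 and 14.7 and 0.973 FPKM against 4.85 and 5.6998. The higher genes include factors of both forebrain and hindbrain.

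Imprinted genes were called in 6 of 16 tested, 4 higher and 2 lower (over all tested genes 4.98% and 2.26%). H19, the maternally expressed noncoding RNA, was measured at 6.701, 8.03 and 7.31 FPKM in PC308-1 and was found as 0 or a single fragment in each of the other 6 libraries. All IDH1 mutant lines had H19 RNA, from 1.19 FPKM to 9.55 FPKM in PIC496-4. The neighbour of H19, Igf2, was near 0 in all lines (0.04602 FPKM in PC308-1). Nnat, the paternally expressed neuronatin, was measured at 156, 123 and 145 FPKM in the PC308-1 libraries, 13.7, 10.8 and 11.4 in PC134-0 and 0.365, 0.484 and 0.279 in PC326-1, and the 3 lines formed 3 levels. Ndn and Cdkn1c, described above, were the other higher genes. Peg3, a paternally expressed zinc finger gene, was lower at 0.485 FPKM against 2.81 and 2.06, and Dlk1, on chromosome 12, at 0.00981 FPKM against 1.91 and 0.645. H19, Cdkn1c, Ndn and Peg3 all lie on chromosome 7. Of these, H19, Cdkn1c and Ndn lie beyond its first 20 Mb, where the tested genes had medians of 0.05 and 0.03.

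Matrix genes were called in both directions. Of 20 tested collagens, 5 were higher and 1 lower (over all tested genes 4.98% and 2.26%). Besides Col2a1, the higher ones were Col4a2, a basement membrane chain, at 7.92 FPKM against 1.89 and 3.41, Col9a1, which coats collagen II fibrils in cartilage, at 1.25 FPKM against 0.1797 and 0.122, and the membrane and minor collagens Col25a1 and Col26a1, at 1.27 FPKM against 0.138 and 0.137 and 2.56 FPKM against 0.616 and 0.348. PIC144-3 had more Col26a1 than PC308-1, 5.29 FPKM. Col9a2, a partner chain of Col9a1, was not called, at 0.653 FPKM against 0.0554 and 0.139, and neither was Col9a3, at 20.5 FPKM against 24.8 and 15.6. Col6a1, a microfibril chain, was lower at 0.478 FPKM against 7.19 and 4.53. Of 36 other matrix and adhesion genes, 5 were higher and 3 lower, and 5 of the 36 lie on chromosomes 12 and 13. Acan, the cartilage and perineuronal proteoglycan aggrecan, was higher at 1.27 FPKM against 0.325 and 0.141, and the integrin subunits Itgav and Itgb8, which pair with each other, at 43.4 FPKM against 19.8 and 16.8 and 16.9 FPKM against 5.66 and 3.43. Itgav lies on chromosome 2 and Itgb8 on chromosome 12. Tnr and Spp1 are the remaining higher genes. The basement membrane genes Nid1 and Lama1 were lower at 2.41 FPKM against 11.3 and 15.5 and 0.0377 FPKM against 1.497 and 1.55, as was Itgb5 at 1.44 FPKM against 4.74 and 5.85. Of these, Nid1 lies on chromosome 13.

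In developmental signalling, the Notch list had 3 of 20 tested genes higher and 1 lower (over all tested genes 4.98% and 2.26%). Dll3, an inhibitory Notch ligand, stood at 20.6 FPKM against 6.495 and 4.05, Dner, a neuronal Notch ligand, at 59.8 FPKM against 28.5 and 13.96, and Jag2, a ligand encoded on chromosome 12, at 2.73 FPKM against 0.783 and 0.981. Jag2 was highest in PIC496-4, at 15.7 FPKM. Among 27 Wnt genes, the secreted inhibitors went apart: Sfrp1 was nearly absent from PC308-1 (above), while Sfrp2 was higher at 7.62 FPKM against 1.98 and 1.32. PIC496-4 was above PC308-1 in Sfrp2, at 19.7 FPKM. Among 9 Hedgehog genes, Cdon, a co-receptor, was higher at 3.51 FPKM against 0.715 and 0.368, and the co-receptor Gas1 and the factor Gli3, both on chromosome 13, were lower at 34.8 FPKM against 77.4 and 92.4 and 1.91 FPKM against 4.52 and 5.09. Of 25 TGF-beta and BMP genes, Tgfb3, a ligand encoded on chromosome 12, and Acvr2a, an activin receptor encoded on chromosome 2, were higher, at 15.96 FPKM against 4.44 and 5.68 and 9.98 FPKM against 4.46 and 4.35. Acvr2a lies between 40 and 90 Mb of chromosome 2, where the tested genes had medians of 0.60 and 0.63. The IDH1 mutant lines held 11.4 to 15.5 FPKM of Tgfb3 and 6.77 to 8.82 FPKM of Acvr2a.

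All lines were grown at 5% oxygen, and some hypoxia response genes differed between them. Of 24 tested, 3 were higher and 1 lower (over all tested genes 4.98% and 2.26%). A positive difference against both lines was found for 18 and a negative one for 4, with median log2 differences of 0.51 and 0.55 (over all tested genes, 5615 of 13706 were positive, 5803 negative, and the medians were -0.00 and -0.01). Car9, the carbonic anhydrase induced by HIF1, was measured at 36.9, 42.5 and 36.05 FPKM in the PC308-1 libraries, 10.7, 12.5 and 12.7 in PC134-0 and 4.97, 6.73 and 5.85 in PC326-1. PIC144-3 was above PC308-1 in Car9, at 54.7 FPKM. Ndrg1 and Egln3, both induced under low oxygen, stood at 123 FPKM against 49.7 and 48.9 and 209.8 FPKM against 93.99 and 81.02, and Egln3 lies on chromosome 12. The IDH1 mutant lines held 94.1 to 152 FPKM of Ndrg1 and 140 to 184 FPKM of Egln3. Lox, a collagen cross-linking enzyme, was lower at 1.17 FPKM against 7.28 and 4.68. Of 20 tested glycolysis genes none was higher, and Pfkp, a phosphofructokinase gene on chromosome 13, was lower at 16.05 FPKM against 72.9 and 52.1 beside the uncertain Gapdh. The list's medians were 0.02 and 0.09.

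In the remaining lists, Nupr1, a stress-induced gene, was the only 1 of 22 amino acid response genes called, at 5.32 FPKM against 11.8 and 26.1. The shares called over all tested genes were 4.98% higher and 2.26% lower. Gpx3, a glutathione peroxidase, and Txn1, thioredoxin, were higher among 22 oxidative stress genes, at 21.9 FPKM against 8.19 and 3.32 and 733 FPKM against 350.4 and 341. The IDH1 mutant lines held 1.69 to 8.52 FPKM of Gpx3 and 639 to 1279 FPKM of Txn1. Of 19 glutamate and GABA receptors, Grm3, a metabotropic glutamate receptor, was lower at 2.34 FPKM against 14.5 and 7.76 and Gabbr2, a GABA-B subunit, higher at 3.88 FPKM against 1.25 and 0.446. Gabbr2 was highest in PIC496-3, at 9.50 FPKM. Among 22 potassium channels, Kcna2 was higher at 4.12 FPKM against 0.529 and 0.552 and Kcnk1 lower at 0.661 FPKM against 2.93 and 2.92, besides Kcnj10.

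**Figure D3:**
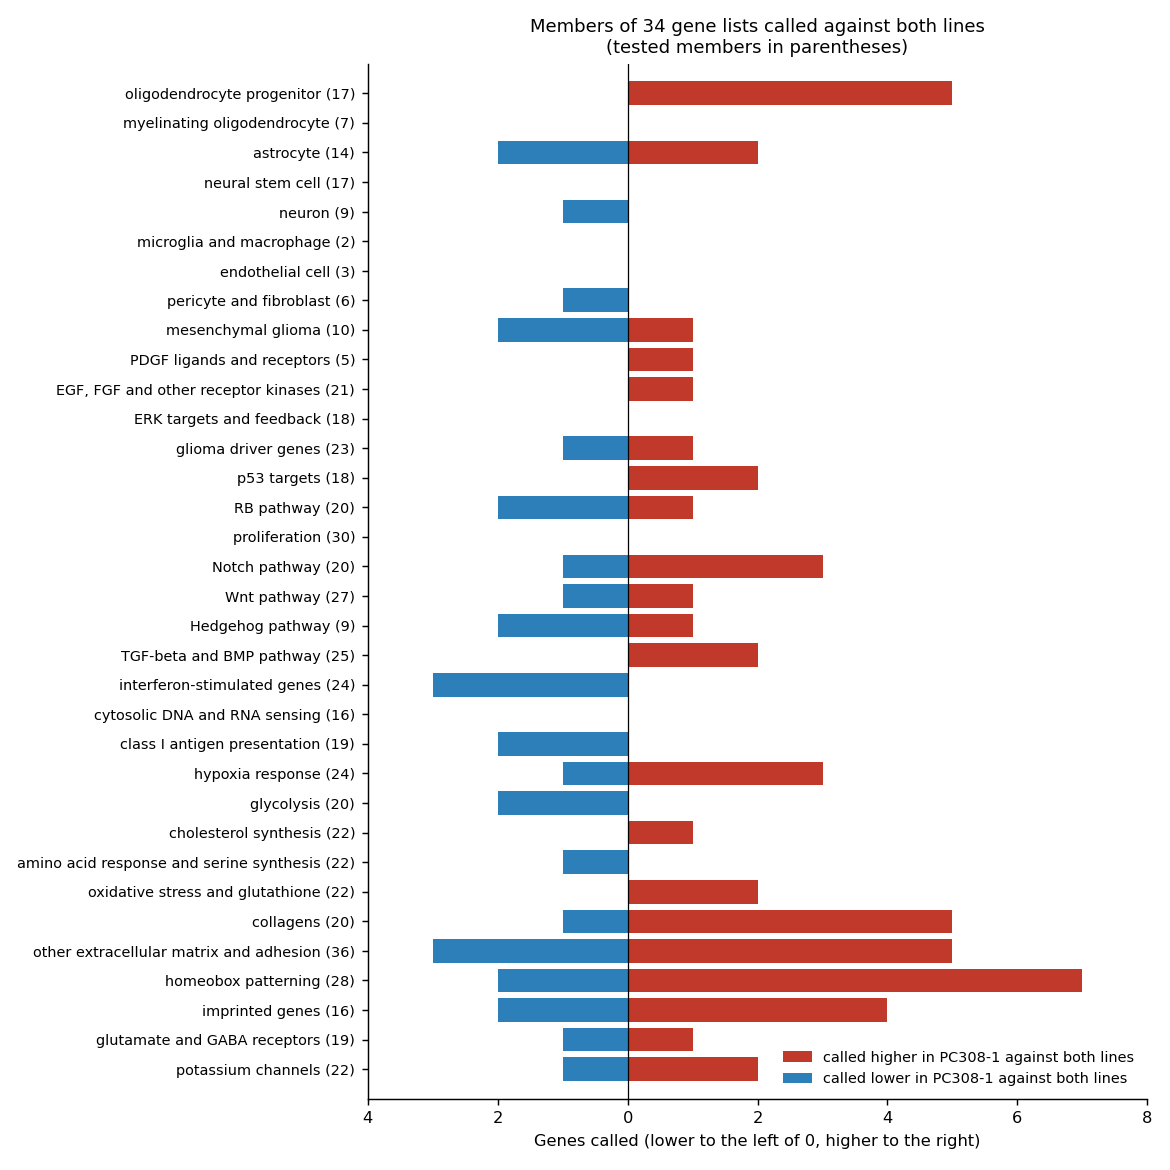
Bars count the members of each of 34 gene lists that were called in PC308-1 against both other lines, higher to the right of 0 and lower to the left, with the tested members of a list in parentheses. Oligodendrocyte progenitor genes have 5 higher and 0 lower, patterning genes 7 and 2, and proliferation genes 0 and 0. Over all tested genes 682 of 13706 were higher and 310 lower.

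Chromosomes 12 and 13 stood apart as wholes. On chromosome 12, 215 of 523 tested genes were called higher in PC308-1 (41.1%) and 3 lower (0.574%), and on chromosome 13, 9 of 613 were called higher (1.47%) and 51 lower (8.32%). The median log2 difference over chromosome 12 was 0.97 against PC134-0 and 0.99 against PC326-1, and over chromosome 13 it was -0.59 and -0.50. PC134-0 and PC326-1 differed from each other by medians of 0.02 and 0.06. Since a shift near 1 lies at the fold threshold, the counts on chromosome 12 depend on it: by adjusted p alone 396 chromosome 12 genes were higher (75.7%) and 7 lower (1.34%), and 343 chromosome 13 genes were lower (56%) and 21 higher (3.43%), beside 20.3% higher and 19.2% lower over all tested genes and 18.8% and 18.1% outside these chromosomes. All 3 PC308-1 libraries lay above the other 6 in 78.8% of chromosome 12 genes and below them in 1.91%, and in chromosome 13 genes above in 4.08% and below in 58.7%.

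As a single value per library, the median deviation of chromosome 12 genes from their mean over the 9 libraries, less that of all other autosomal genes, was 0.66, 0.69 and 0.66 in the PC308-1 libraries and between -0.36 and -0.32 in the other 6. The groups did not overlap, and they differed by 1.01. For chromosome 13 the values were -0.38, -0.33 and -0.42 in PC308-1 and 0.17 to 0.27 in the others, a difference of -0.58. Both chromosomes were chosen with their shifts known and the 9 libraries come from 3 lines, so these values are a description and no test is given. Against the mean of all 7 lines, the chromosome 12 median was 0.50 in PC308-1, -0.46 in PC134-0, -0.45 in PC326-1 and -0.06 to 0.23 in the IDH1 mutant lines. The chromosome 13 median was -0.23 in PC308-1, 0.33 in PC134-0, 0.27 in PC326-1 and -0.17 to -0.03 in the IDH1 mutant lines. In 170 of the 215 higher chromosome 12 genes PC134-0 and PC326-1 both lay below the remaining 5 lines (79.1%), and PC308-1 was the highest of the 7 in 148 (68.8%). With each chromosome's own median taken off the differences, 19 genes of chromosome 12 and 31 of chromosome 13 passed the fold threshold in either direction. The adjusted p values were those of the differences before this step. A gene with little difference before it could therefore not be counted. DNA copy number was not measured, and its part in these shifts was not tested.

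**Figure D4:**
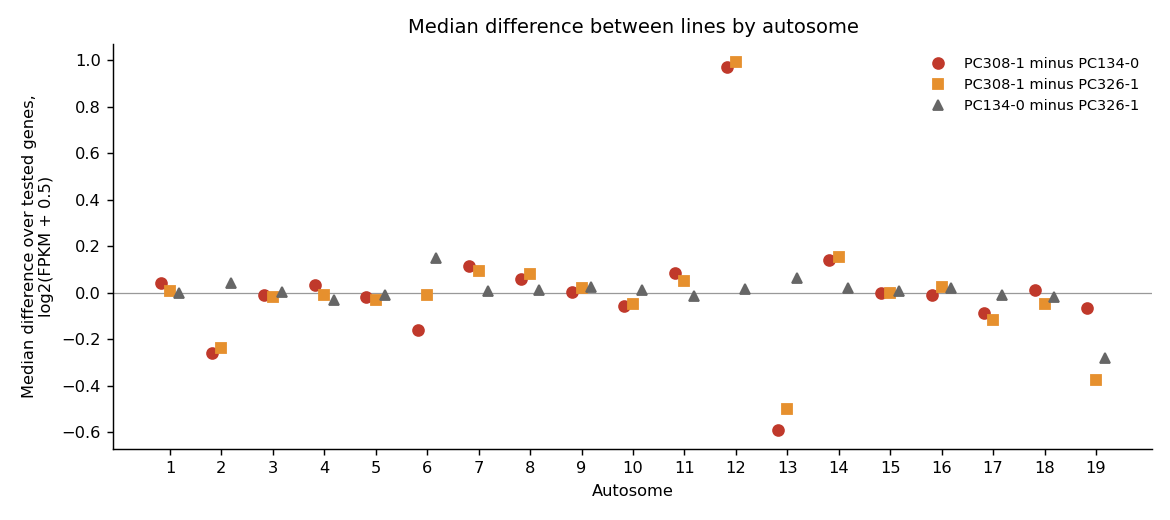
Median log2(FPKM + 0.5) difference over the tested genes of each autosome, for PC308-1 against each other line and for the other lines against each other. Chromosome 12 lies at 0.97 and 0.99 and chromosome 13 at -0.59 and -0.50 in the PC308-1 comparisons, chromosome 2 lies at -0.26 and -0.24, and chromosome 19 at -0.07 and -0.38, where PC326-1 differs from both other lines.

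The shift of chromosome 12 ran along its whole length with an exception. In 10 Mb bins the median was 0.71 to 1.13 against PC134-0 and 0.30 to 1.12 against PC326-1. The low value came from the 25 tested genes from Taf1b to Dld (24498359 to 31351453 in GRCm38), where the median was 0.71 against PC134-0 but -0.61 against PC326-1. There PC326-1 was the high line, at 0.88 above the mean of the 7 lines. Rps7, a ribosomal protein gene of this stretch, stood at 275 FPKM against 125 and 453, and Rrm2, a ribonucleotide reductase subunit needed for DNA synthesis, at 54.4 FPKM against 22.4 and 59.9. On chromosome 13 the bins lay between -0.74 and -0.42 against PC134-0 and between -0.70 and -0.33 against PC326-1.

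Single genes went beyond the shift of their chromosome. On chromosome 12, Clec14a, a lectin-like gene known from endothelium, was measured at 8.23, 6.98 and 7.53 FPKM in the PC308-1 libraries, 0.0905, 0.1105 and 0.0119 in PC134-0 and 0.0796, 0.0258 and 0 in PC326-1. Pax9, a paired-box factor, was measured at 4.15, 5.098 and 3.95 FPKM in the PC308-1 libraries, 0.105, 0.0874 and 0.0322 in PC134-0 and 0.0719, 0.035001 and 0.0379 in PC326-1. In both genes the PC308-1 libraries lay above the other 6, which were near 0. For Clec14a, the log2 difference was 3.82 against PC134-0 and 3.92 against PC326-1 (SE 0.13; limma adjusted p = 3.06e-08 and 2.51e-08). Dlk1, the paternally expressed Notch-related protein, and Ifi27l2a, an interferon-induced gene, were lower against the run of the chromosome, at 0.00981 FPKM against 1.91 and 0.645 and 0.367 FPKM against 2.64 and 1.32. The Ifi27l2a call rests on few fragments, with PC308-1 libraries at 0, 0 and 1.102 FPKM, and was lost under several alternatives, among them no filter on low values (adjusted p = 0.0828).

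On chromosome 13, Hapln1, a link protein that binds hyaluronan to proteoglycans, was higher in PC308-1, at 11.6, 9.94 and 11.1 FPKM in the PC308-1 libraries, 0.321, 0.406 and 0.193 in PC134-0 and 0.216, 0.2898 and 0.162 in PC326-1. Prl, the hormone prolactin, was measured at 3.55, 3.57 and 2.98 FPKM in PC308-1 and at 0 in the other 6 libraries, at least 24.7-fold higher against a floor of 3 fragments per library, and PIC144-3 had 2.499 FPKM. Irx1, a homeobox factor, and Ppp1r3g, a glycogen-targeting phosphatase subunit, were higher as well, at 5.78 FPKM against 0.8998 and 1.49 and 3.75 FPKM against 0.994 and 0.815. PIC144-1 had 6.74 FPKM of Irx1. On the lower side, Cxcl14, a chemokine, was measured at 0, 0.0324 and 0 FPKM in the PC308-1 libraries, 6.05, 5.01 and 5.72 in PC134-0 and 5.41, 6.36 and 5.91 in PC326-1. Only PIC144-3 of the IDH1 mutant lines had Cxcl14 at the level of the other IDH1 WT lines, 6.75 FPKM. Tspan17, a tetraspanin, stood at 0.285 FPKM against 8.32 and 6.58, Slc12a7, a potassium-chloride cotransporter, at 1.29 FPKM against 7.94 and 8.58, and Sv2c, a synaptic vesicle protein, at 1.597 FPKM against 8.34 and 8.34. Each of these 4 differences was larger than the chromosome's median, which the fold threshold and the rule that chose the genes made certain.

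**Figure D5:**
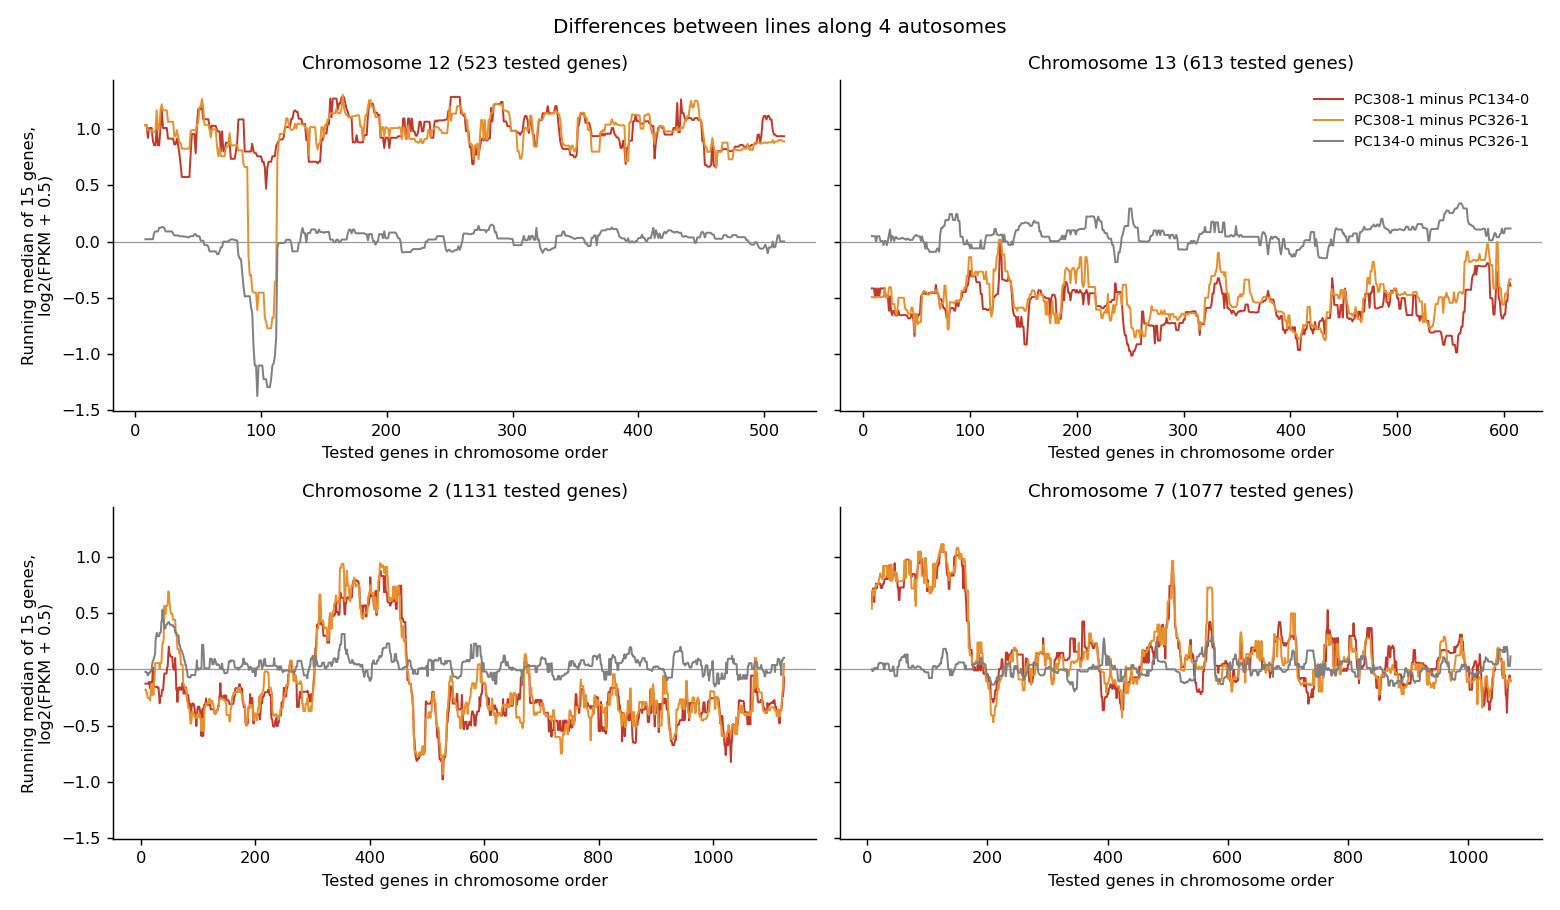
Running median of 15 genes of the log2(FPKM + 0.5) difference, with tested genes in chromosome order, for chromosomes 12, 13, 2 and 7. PC308-1 lies near 1 along chromosome 12 and near -0.5 along chromosome 13 against both lines, is high against them at the start of chromosome 7 and in a middle stretch of chromosome 2, and dips against PC326-1 on chromosome 12 where PC326-1 itself is high. Each curve is a difference between lines, so it does not show which line is apart.

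Beyond these chromosomes, stretches of chromosomes 2 and 7 also differed over many neighbouring genes. These stretches were chosen after their values were seen and carry no test. Over the first 20 Mb of chromosome 7, the median of 168 genes was 0.83 against PC134-0 and 0.84 against PC326-1, and 46 of them were called higher (27.4%) and 2 lower. Over the rest of chromosome 7 the medians of 909 genes were 0.05 and 0.03. Against the mean of all 7 lines, the start of chromosome 7 was at 0.31 in PC308-1 and -0.46 in PC134-0 and PC326-1. The IDH1 mutant lines lay at 0.07 to 0.26 there. On chromosome 2, the 157 genes between 40 and 90 Mb had medians of 0.60 and 0.63 with 17 called higher and 1 lower, and the 670 genes beyond 90 Mb had medians of -0.36 and -0.36 with 21 called higher and 39 lower. Against the 7-line mean, the stretch from 40 to 90 Mb was at 0.16 in PC308-1, -0.38 in PC134-0 and -0.48 in PC326-1. The IDH1 mutant lines lay at -0.01 to 0.26. Beyond 90 Mb the values were -0.09, 0.31 and 0.28, with -0.25 to -0.04 in the IDH1 mutant lines. In the start of chromosome 7 and in both stretches of chromosome 2 beyond 40 Mb, PC134-0 and PC326-1 lay further from the 7-line mean than PC308-1. The 304 genes of chromosome 2 up to 40 Mb went otherwise, with medians of -0.24 and -0.21. There PC308-1 was furthest from the 7-line mean, at -0.17, beside 0.07 in PC134-0, 0.04 in PC326-1 and -0.02 to 0.03 in the IDH1 mutant lines. When chromosome 2 and the start of chromosome 7 were left out as well, 370 of 11271 genes were called higher (3.28%) and 206 lower (1.83%), so most of the calls outside chromosomes 12 and 13 came from elsewhere.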

How the data were processed

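The authors deposited FPKM per gene for 21 libraries from paired reads of 150 bp. HISAT2 and mm39 are named in the submitters' processing notes, but gene positions in the file are those of GRCm38 (53585 of 54532 genes), which is used here. No source used here names the counter or says whether it used strand. FPKM times gene length gave whole fragments within a tolerance of 0.05, and libraries of a line always differed by more than sampling noise (mean chi-square per gene 5.05 to 15.7).

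Line means were compared with limma 3.58.1 in R 4.3.3 (eBayes with trend and robust) on log2(FPKM + 0.5) over 9 libraries, with Benjamini-Hochberg adjustment over 13706 autosomal genes. Named were the 12 genes in each direction outside chromosomes 12 and 13, and the 4 on each of those chromosomes, with the largest smaller-of-the-pair differences among calls without overlap of libraries and without predicted symbols. Of each list up to 4 called members were named, or else the most abundant one, and 8 model genes were added. Some genes that these rules name are not reported here. Neighbouring genes and further list members were chosen after their values were seen. The 34 lists and all members were chosen with earlier results of these data known. On simulated data with 13241 genes tested, 73.5% of genes changed by 1.5 and 94.8% of those changed by 3 (log2) were recovered, with 1 false call. There the lines shared a mean for every unchanged gene, so this gives no rate of false calls for the real lines. Alternatives were pseudocounts, filters, scalings, limma voom on recovered fragments, eBayes without trend or robust, no fold threshold, a spread from all 21 libraries, the replicate block and leaving out each replicate. The alternative without chromosome 2 and the start of chromosome 7 was added after seeing the data. Figures were drawn with matplotlib 3.10.9.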

Additional observations from a re-analysis of the deposited data

How the results depend on the processing

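No direction reversed under any alternative run, among the 10 main results and the 95 called named genes. Without a fold threshold, 2364 genes outside chromosomes 12 and 13 were higher and 2278 lower, 403 on chromosome 12 and 364 on chromosome 13 changed, and 6957, 6922 and 2032 changed in PC308-1 against PC134-0, PC308-1 against PC326-1 and PC134-0 against PC326-1. At a pseudocount of 0.1 the counts were 623 higher and 487 lower, 102 on chromosome 13 and 430 between PC134-0 and PC326-1, and at a pseudocount of 1 the last was 157. Limma voom on recovered fragments gave 671 higher and 549 lower, 106 on chromosome 13, and 2178, 2207 and 529 in the 3 comparisons, with 119 list members called against 77. With chromosome medians subtracted from the differences and the adjusted p values kept as they were, 19 and 31 genes of chromosomes 12 and 13 passed. The cause of these moves was not tested. With no filter on low values the difference of chromosome 12 was 0.37 and that of chromosome 13 was -0.16.

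Leaving out 1 replicate gave 447 to 481 higher, 248 to 282 lower, 209 to 227 on chromosome 12, 59 to 66 on chromosome 13, 1427 to 1516, 1460 to 1546 and 268 to 289 in the comparisons of lines, and 74 to 80 list members. The chromosome differences then ran from 1.00 to 1.03 and from -0.61 to -0.55. Of the 95 called named genes, 18 lost the call under at least 1 alternative, 11 of them without 1 replicate: Anxa1, Btg2, Cdkn2a, Dner, E2f1, Ephb2, Gapdh, Gbp3, Ifi27l2a, Nupr1 and Pdia3. The others were Col25a1, Dlk1, Gbp2, Gli3, Jag2, Tnfrsf10b and Txn1. Deviations of same-numbered libraries of different lines were weakly correlated at most (-0.08 to 0.14, beside -0.13 to 0.10 for other numbers). The own number was the best in 9 of 18. Between PC134-0 and PC308-1 the same-number correlations were 0.04, 0.14 and 0.09. The replicate block left 458 higher and 255 lower. Depth limits genes near 0.5 FPKM, such as Ifi27l2a.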

Other observations

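Outside the autosomes, the Y-linked genes of PC308-1 lay below those of the other IDH1 WT lines. Ddx3y, an RNA helicase gene, was measured at 10.7, 8.78 and 11.05 FPKM in the PC308-1 libraries, 25.1, 28.6 and 27.7 in PC134-0 and 28.4, 30.7 and 28.2 in PC326-1. Kdm5d, a histone demethylase gene, stood at 2.04 FPKM against 6.19 and 6.37, Uty at 1.698 FPKM against 6.74 and 5.91, and Eif2s3y, a translation factor gene, at 9.76 FPKM against 15.3 and 21.99. In each of these 4 genes the 3 PC308-1 libraries lay below the other 6. Xist, the noncoding RNA of the inactive X chromosome, was near 0 in all 3 lines (0.001098 FPKM against 0.0139 and 0.0135). The IDH1 mutant lines held 0 to 1.39 FPKM of Ddx3y. These genes were looked at after the autosomal comparison, and no test was run on them.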
